A study of Mus musculus with 8 samples.

Results

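The 10 genes followed here put Fc receptors and other surface and signalling proteins on myeloid cells: Fcgr1, Fcgr2b, Fcgr3, Fcgr4, Fcer1g, Itgam, Itgax, Csf1r, Cd68 and Tyrobp. They were taken by name from the deposited count table, where each of the 10 had exactly 1 of the 23282 lines, and all 10 were among the 14567 genes with enough counts to be tested. The study asked how milk vesicles given by mouth bear on gene expression in the mouse intestine with and without chemical colitis. RNA of intestinal tissue from wild type C57BL/6 mice was read as 8 libraries, 2 in each of 4 groups. Mice labelled ExDSS were gavaged daily for 3 weeks with 1 mg of exosomes from bovine colostrum, which are small vesicles of first milk, followed by 3% (w/v) dextran sodium sulfate (DSS) in the drinking water for 6 days. Mice labelled PC received phosphate buffered saline and then the same DSS, mice labelled Ex received the exosomes and no DSS, and mice labelled NC received saline alone. DSS is a polymer that damages the gut lining, and it is widely used as a model of colitis. Which part of the intestine was taken is not stated in the labels. The labels do not tie the 2 libraries of a group to different animals, so the spread behind each p-value is that of libraries and may be technical.

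Fc receptors bind the constant part of antibodies and so let antibody-coated material start a response in the cell that carries them. In the mouse, Fcgr1, Fcgr3 and Fcgr4 encode activating receptors for IgG, which signal through the paired tyrosines (ITAM) of the Fc receptor gamma chain, the product of Fcer1g, while Fcgr2b encodes the inhibitory receptor, which carries a single inhibitory tyrosine motif (ITIM) in its own tail. The other genes mark the cells that carry these receptors in the gut, above all macrophages, monocytes, dendritic cells and neutrophils.

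The opposing signals are visible in the coding sequences. The stretches that encode the motifs are given from the GENCODE M21 transcripts (GRCm38, coding strand), with the tyrosine codons in capitals. Both genes lie on chromosome 1. The Fcer1g stretch covers coding bases 193 to 237 of 258, and the Fcgr2b stretch covers coding bases 949 to 966 of 1020.
Fcer1g ITAM: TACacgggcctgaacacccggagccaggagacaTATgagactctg
Fcgr2b ITIM: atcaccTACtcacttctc
The Fcer1g stretch holds 2 tyrosine codons and the Fcgr2b stretch holds 1.

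Of the 8 libraries, 3 stood apart and bear on every value that follows. Total counts were 8813622 to 12308537 in 7 libraries and 1163147 in Ex 2, where 53.5% of counts fell on the ribosomal RNA gene Rn45s, against 0.407% to 13.1% elsewhere. Ex 2 held 9 counts over all 10 genes, at most 3 for any gene, so 3 counts there, the floor used here, correspond to 4.47 counts per 1000000 (CPM). Pancreatic acinar genes took 21.6% of counts in ExDSS 1 and 9.65% in NC 2, and at most 0.284% in the other libraries. Genes with a count numbered 9825 in ExDSS 1, 11874 in ExDSS 2, 12683 in NC 2 and 8760 in Ex 2. They numbered 16123 in NC 1, 16374 in Ex 1, and 16787 and 16790 in PC. Whether a 0 or a low value in the libraries with fewer genes stands for a missing transcript was not tested. The neutrophil alarmin gene S100a8 read 1171 and 559 normalised CPM in the libraries labelled ExDSS and 0.291 and 0.628 in those labelled PC, then 1.12 and 0 in Ex and 825 and 792 in NC. Its partner S100a9 read 1427 and 1033 in ExDSS, 0.510 and 0.628 in PC, 3.17 and 5.96 in Ex, and 1144 and 1128 in NC. Both alarmins, which mark acute inflammation of the gut, were thus high in the libraries labelled as saline controls and low in those labelled as DSS alone, against what the labels lead one to look for, so the groups are named below by their labels only.

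The 10 genes followed the same split. Summed over all 10, they read 1397 and 1615 normalised CPM in ExDSS, 131 and 151 in PC, 152 and 13.4 in Ex, and 985 and 1053 in NC. The ExDSS and NC libraries were high, the PC and Ex libraries low, and no library of one pair reached the other. By group means, all 10 genes had ExDSS and NC as the upper 2 groups, then PC and then Ex. The lower of the upper 2 was separated from PC in every gene. The Ex means include Ex 2, with 9 counts over all 10 genes. Ex 1 alone read above both PC libraries for Fcgr2b, Fcgr3, Fcer1g and Csf1r. It lay between them for Fcgr4, Cd68 and Tyrobp, and below both for Fcgr1, Itgam and Itgax. ExDSS stood first for 7 genes and NC for 3, Fcgr2b, Itgam and Tyrobp. ExDSS and NC were separated by their libraries for Fcgr1, Fcgr4, Fcer1g and Cd68 and overlapped for the other 6. PC and Ex were separated for Fcgr1, Itgam and Itgax, where both Ex libraries lay at or under 3.68 CPM, and overlapped for the other 7. For these 3 genes Ex 2 held 2, 0 and 0 counts, under its floor of 3, so its place below PC is uncertain. The share of all genes separated was not computed for ExDSS and NC or for PC and Ex. The numbers of separated genes in these pairs are thus a description only.

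**Figure D1:**
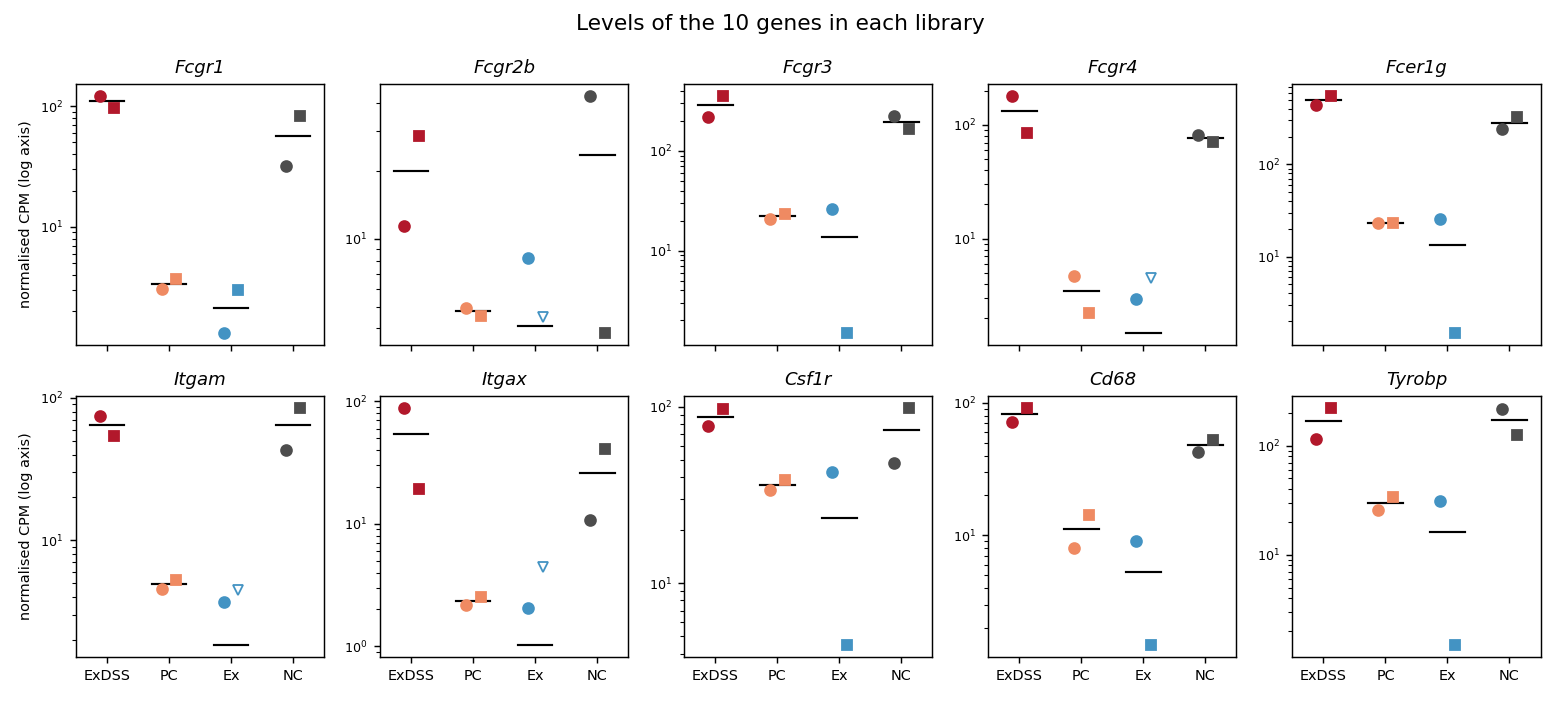
Normalised CPM (log axis, a separate scale for each gene) of the 10 genes in the 4 groups. Circles are replicate 1, squares replicate 2 and bars the group mean, and an open triangle marks a library with no count, drawn at the level of 3 counts. The ExDSS and NC libraries sit above the PC and Ex libraries for 9 genes, while for Fcgr2b the library NC 2 (3.82 CPM) sits with the low ones.

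The high-affinity IgG receptor gene Fcgr1 (chr3:96282909-96293969, minus strand, GRCm38) read 122 and 95.8 normalised CPM in ExDSS, 3.06 and 3.69 in PC, 1.33 and 2.98 in Ex, and 31.9 and 82.1 in NC. ExDSS was high and tight, PC and Ex were low, with Ex 2 at 2 counts, and the NC libraries differed between themselves by more than any other pair with counts above the floor for this gene. Fcgr4 (chr1:171018926-171029761, plus strand), the mouse receptor for IgG2 antibodies, read 181 and 84.4 in ExDSS, 4.73 and 2.20 in PC, 2.97 and 0 in Ex, and 81.1 and 71.4 in NC. The lowest ExDSS library still lay above both NC libraries.

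Fcgr3 (chr1:171051169-171059403, minus strand), the low-affinity activating receptor, read 217 and 361 in ExDSS, 20.8 and 23.4 in PC, 26.2 and 1.49 in Ex, and 226 and 167 in NC. Fcer1g (chr1:171229572-171234349, minus strand), the signalling chain these receptors share, read 436 and 559 in ExDSS, 23.1 and 22.9 in PC, 25.4 and 1.49 in Ex, and 242 and 324 in NC. These patterns were the most alike of all 45 pairs among the 10 genes, with a root mean square difference of 0.418 between their centred log2 levels over 8 libraries. Fcgr2b (chr1:170960559-170976071, minus strand) broke the pattern: it read 11.4 and 28.8 in ExDSS, 4.95 and 4.56 in PC, 8.18 and 0 in Ex, and 43.3 and 3.82 in NC. The NC libraries enclosed those of PC and ExDSS. Fcgr1 and Fcgr2b were the least alike pair, at 2.37. Fcgr2b, Fcgr3 and Fcgr4 are related in sequence, and the labels do not say how reads matching more than one of them were assigned, so their split is uncertain to that extent.

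Itgam encodes the alpha chain CD11b of complement receptor 3, found on neutrophils, monocytes and many macrophages, and Itgax encodes CD11c, found on dendritic cells and gut macrophages. Itgam (chr7:128062640-128118491, plus strand) read 74.4 and 53.7 in ExDSS, 4.59 and 5.26 in PC, 3.68 and 0 in Ex, and 43.2 and 85.6 in NC. Itgax (chr7:128129568-128150657, plus strand) read 89.1 and 19.4 in ExDSS, 2.18 and 2.51 in PC, 2.04 and 0 in Ex, and 10.8 and 41.2 in NC. Both were higher in every ExDSS and NC library than in any PC or Ex library, but Itgax varied 4.60-fold between the ExDSS libraries, the widest spread of the 10 genes there. The count of Itgam per count of Itgax was 0.835 and 2.77 in ExDSS, 2.10 and 2.09 in PC, 1.80 in Ex 1, and 4.02 and 2.08 in NC, so the ratio differed more within ExDSS and within NC than it did between PC and Ex 1.

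Cd68 encodes a lysosomal glycoprotein of macrophages, Tyrobp encodes the ITAM adaptor DAP12, and Csf1r encodes the receptor that keeps macrophages alive. Cd68 (chr11:69664213-69666170, minus strand) read 72.0 and 92.1 in ExDSS, 8.01 and 14.2 in PC, 9.10 and 1.49 in Ex, and 42.8 and 52.9 in NC. Tyrobp (chr7:30413788-30417579, plus strand) read 116 and 223 in ExDSS, 25.8 and 33.8 in PC, 31.0 and 1.49 in Ex, and 215 and 125 in NC. Both again split the libraries into a high and a low set. Csf1r (chr18:61105572-61131139, plus strand) read 78.1 and 97.4 in ExDSS, 33.6 and 38.4 in PC, 42.5 and 4.47 in Ex, and 48.2 and 98.9 in NC. Its ExDSS and NC libraries did not overlap those of PC and Ex either. The lowest NC library was only 1.25-fold above the highest PC library, the narrowest gap among the 9 genes without overlap in PC against NC.

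None of the 10 genes passed in PC against NC, the test of DSS without exosomes, and all 10 fitted changes were negative. The log2 fold changes in edgeR's quasi-likelihood test were -4.45 for Fcgr4 (SE 1.49), -4.07 for Fcgr1 (SE 1.45), -3.71 for Itgam (SE 1.54), -3.62 for Fcer1g (SE 1.45), -3.46 for Itgax (SE 1.73) and -3.15 for Fcgr3 (SE 1.40). They were -2.51 for Tyrobp (SE 1.38), -2.31 for Fcgr2b (SE 1.91), -2.10 for Cd68 (SE 1.38) and -1.03 for Csf1r (SE 1.30). Each had an adjusted p of 1 over all genes. The median of the 10 was -3.31, beside 0.10 over all 14567 genes. The number of genes called was 0 among the 10 and 0 (0%) among all genes tested. At an unadjusted p under 0.05, 5 of the 10 were lower in PC, where 1.81% of all genes were. DESeq2 called 1 of the 10 lower and 0.556% of all genes, limma-voom called 0 and 0.0137%. The PC libraries lay below both NC libraries for 9 of the 10, Fcgr2b being the other, and for 23.6% of all genes.

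ExDSS against PC, which sets exosome treatment before DSS against DSS alone, gave 10 positive changes. They were 5.26 for Fcgr4 (SE 1.55), 5.01 for Fcgr1 (SE 1.51), 4.52 for Itgax (SE 1.81), 4.43 for Fcer1g (SE 1.51), 3.71 for Fcgr3 (SE 1.44) and 3.70 for Itgam (SE 1.54), all with an edgeR adjusted p of 0.228. Cd68 had 2.88 (SE 1.42), Tyrobp 2.51 (SE 1.37), Fcgr2b 2.08 (SE 1.90) and Csf1r 1.29 (SE 1.31), with edgeR adjusted p between 0.278 and 0.728. The median of the 10 was 3.70, beside -0.51 over all genes. Again edgeR called 0 of the 10 and 0 (0%) of all genes. At an unadjusted p under 0.05, 6 of the 10 were higher, against 2.84% of all genes. DESeq2 called 6 higher (2.57% of all genes) and limma-voom 3 (0.645%). All 10 had both ExDSS libraries above both PC libraries, which held for 18.9% of all genes.

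Ex against NC sets exosomes alone against saline, and it rests on 1 library of usual depth in Ex. The 10 changes were negative, with a median of -4.01 beside -0.27 over all genes. The largest were -5.29 for Fcgr4 (SE 1.58) and -4.89 for Fcgr1 (SE 1.58), and the smallest -1.60 for Csf1r (SE 1.32). The edgeR adjusted p was 0.930 for 8 genes and 0.999 for Fcgr2b and Csf1r, so 0 of the 10 and 0 (0%) of all genes were called. At an unadjusted p under 0.05, 8 of the 10 were lower, against 2.42% of all genes, while DESeq2 called 4 (0.81%) and limma-voom 0 (0%). The Ex libraries lay below both NC libraries for 9 of the 10 and for 22.9% of all genes.

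ExDSS against Ex sets DSS after exosomes against exosomes alone, and it too rests on 1 library of usual depth in Ex. The 10 changes were positive, with a median of 4.55 beside -0.29 over all genes. The median of the 10 was 3.83 without Ex 2 and 8.17 without Ex 1. Fcgr4 had 6.10 (SE 1.64, edgeR adjusted p = 0.194) and Fcgr1 5.82 (SE 1.64, edgeR adjusted p = 0.207), while Csf1r had 1.86 (SE 1.33) and Fcgr2b 2.14 (SE 1.91), the lowest of the 10. EdgeR called 0 of the 10 and 0 (0%) of all genes. At an unadjusted p under 0.05, 8 of the 10 were higher, against 3.55% of all genes, and DESeq2 called 7 (2.69%) and limma-voom 4 (0.542%). Both ExDSS libraries lay above both Ex libraries for all 10 and for 17% of all genes. Comparisons that share libraries are not independent of each other.

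**Figure D2:**
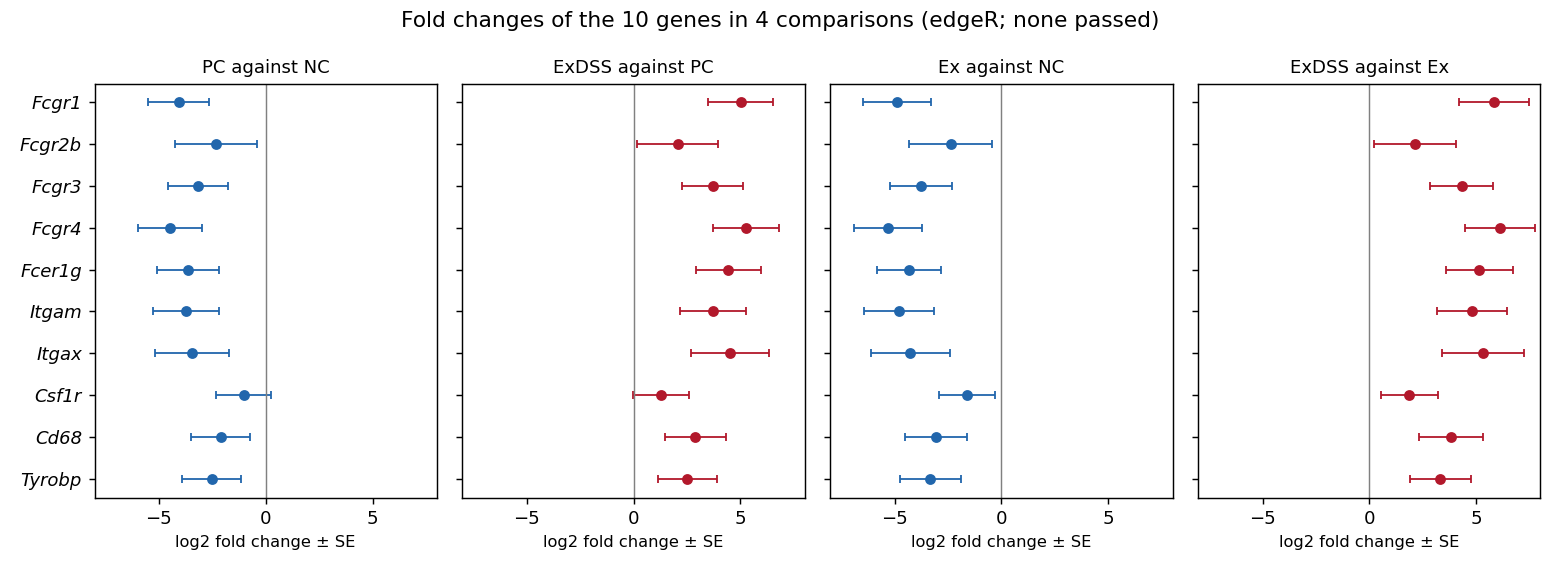
Log2 fold change (horizontal axis) with its SE for each of the 10 genes in 4 comparisons of 2 against 2 libraries, fitted with edgeR. All 10 values are negative in PC against NC and in Ex against NC and positive in ExDSS against PC and ExDSS against Ex, Csf1r lies nearest to 0 in each, and no value passed at an adjusted p under 0.05.

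The interaction of the treatments, the change with DSS after exosomes minus the change with DSS after saline, was positive for all 10 genes. Fcgr4 was the one gene of the 10 called, at a log2 value of 10.55 (SE 2.21, edgeR adjusted p = 0.0404), where 42 genes or 0.288% of all were called. It combines a fitted DSS change of 6.10 with exosomes and -4.45 without. Fcgr1 had 9.90 (SE 2.18, edgeR adjusted p = 0.0537), Itgax 8.78 (SE 2.58), Fcer1g 8.75 (SE 2.13), Itgam 8.50 (SE 2.25) and Fcgr3 7.46 (SE 2.03). The smaller values were 5.93 for Cd68 (SE 2.03), 5.83 for Tyrobp (SE 1.98), 4.45 for Fcgr2b (SE 2.70) and 2.89 for Csf1r (SE 1.86), and the edgeR adjusted p of the 8 genes other than Fcgr4 and Fcgr1 lay between 0.0847 and 0.415. The median of the 10 was 7.98, beside -0.58 over all genes. At an unadjusted p under 0.05, 8 of the 10 were positive, against 5.86% of all genes, and DESeq2 called 8 (4.22%) and limma-voom 5 (0.755%). The Fcgr4 call was lost when any 1 of ExDSS 1, ExDSS 2, PC 1, PC 2, Ex 2, NC 1 or NC 2 was left out, and kept without Ex 1. Over 17 alternatives, which include DESeq2, limma-voom and 2 settings added after the data were seen, its adjusted p ran between 2.73e-06 and 0.471, under 0.05 in 8. The direction of the change without exosomes rests on the PC and NC labels, which the alarmin levels go against.

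The balance of the IgG receptors differed between libraries, and a ratio of counts inside a library does not depend on scaling. The activating receptors had 45.7 counts (95% interval 36.7 to 57.5) and 18.8 counts (16.9 to 21.0) per Fcgr2b count in ExDSS 1 and ExDSS 2. The ratio was 5.78 (4.46 to 7.59) and 6.43 (4.87 to 8.63) in PC, 3.73 (2.90 to 4.83) in Ex 1, and 7.83 (7.21 to 8.50) and 84.1 (61.6 to 118) in NC. Ex 2 had 3 activating counts and 0 Fcgr2b counts, which gives no ratio. The ratio was higher in both ExDSS libraries than in both PC libraries. The NC libraries lay at both ends of the range, and the libraries with the highest ratios, NC 2 and ExDSS 1, were also those with pancreatic acinar counts, whose part in the ratio was not tested. Intervals are exact and cover counting error only.

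Fcgr2b made up 2.14% and 5.05% of the counts of the 4 receptors in ExDSS, 14.8% and 13.5% in PC, 21.2% in Ex 1, and 11.3% and 1.18% in NC. Fcgr1 made up 23.0% and 16.8% in ExDSS, 9.11% and 10.9% in PC, 3.44% in Ex 1, and 8.34% and 25.3% in NC. Fcgr3 was the most counted in all 7 of these libraries, between 40.8% in ExDSS 1 and 69.1% in PC 2. The shared chain stayed in a narrow ratio to its receptors: Fcer1g had 0.837 and 1.03 counts per activating receptor count in ExDSS, 0.809 and 0.783 in PC, 0.832 in Ex 1, and 0.713 and 1.01 in NC. Reads start near the 3′ end of the transcript, so counts are set side by side here without a correction for length.

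**Figure D3:**
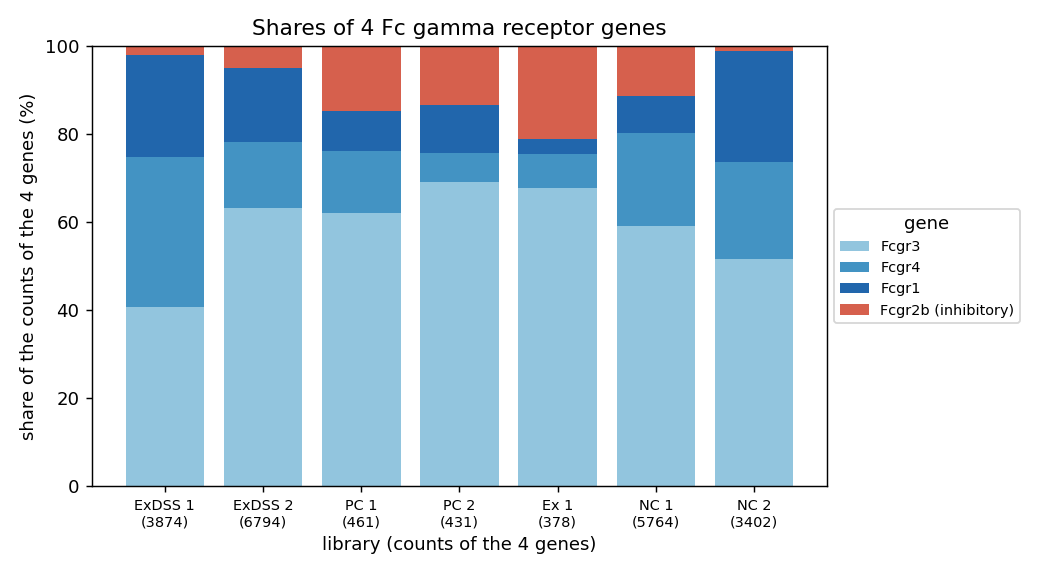
Share (%) of the summed counts of Fcgr1, Fcgr2b, Fcgr3 and Fcgr4 held by each gene in 7 libraries, with the summed counts in brackets. Ex 2, with 3 counts, is left out. The inhibitory Fcgr2b takes 1.18% in NC 2 and 2.14% in ExDSS 1 but 13.5% to 21.2% in PC and Ex 1.

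Whole-tissue RNA cannot tell fewer cells of a type from less RNA per cell, so the 10 genes were also set against marker lists. The list of 7 general leukocyte genes summed to 1003 and 1032 CPM in ExDSS, 104 and 160 in PC, 121 and 2.98 in Ex, and 572 and 767 in NC. Neutrophil markers, of which 12 of 17 were tested, summed to 3217 and 2162 in ExDSS, 18.1 and 17.7 in PC, 24.0 and 14.9 in Ex, and 2518 and 2254 in NC. Macrophage markers summed to 4339 and 7258 in ExDSS, 706 and 829 in PC, 825 and 44.7 in Ex, and 2971 and 5464 in NC. In ExDSS and NC, much of the neutrophil sum was S100a8 and S100a9, and much of the macrophage sum was Apoe, C1qa and C1qb. Gene by gene in ExDSS against PC, 11 of the 12 tested neutrophil genes were positive and 1 negative. Of the 16 tested macrophage genes, 13 were positive and 3 negative. The sums of the leukocyte, neutrophil and macrophage lists were high in the same libraries as the 10 genes. Fibroblast markers were too, at 3683 and 3456 in ExDSS, 1546 and 2219 in PC, 2619 and 55.1 in Ex, and 4378 and 3570 in NC. Dendritic cell markers summed to 1061 and 720 in ExDSS, 142 and 182 in PC, 120 and 131 in Ex, and 524 and 738 in NC. Single dendritic cell genes went both ways, with 7 positive and 5 negative in ExDSS against PC. The sums of mast cell, eosinophil and NK cell markers also split the libraries in this way. Those of monocyte, B and plasma cell and epithelial markers had another order. Monocyte markers summed to 940 and 1715 in ExDSS, 1598 and 1845 in PC, 3122 and 243 in Ex, and 1468 and 537 in NC. Much of this sum was Plac8, at 118 and 511 in ExDSS, 1418 and 1625 in PC, 2866 and 13.4 in Ex, and 812 and 102 in NC. Gene by gene, 10 of the 12 were positive in ExDSS against PC (median 1.57, beside -0.51 over all genes). In PC against NC, 11 were negative (median -0.99, beside 0.10). B and plasma cell markers summed to 821 and 1554 in ExDSS, 904 and 889 in PC, 596 and 76.0 in Ex, and 1329 and 767 in NC, with groups that overlapped. Epithelial markers summed to 4800 and 4111 in ExDSS, 4321 and 3969 in PC, 4557 and 62.6 in Ex, and 4276 and 6518 in NC. Single epithelial genes went both ways, with 5 positive and 5 negative in ExDSS against PC. The part of each cell type in the levels of the 10 genes was not tested.

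**Figure D4:**
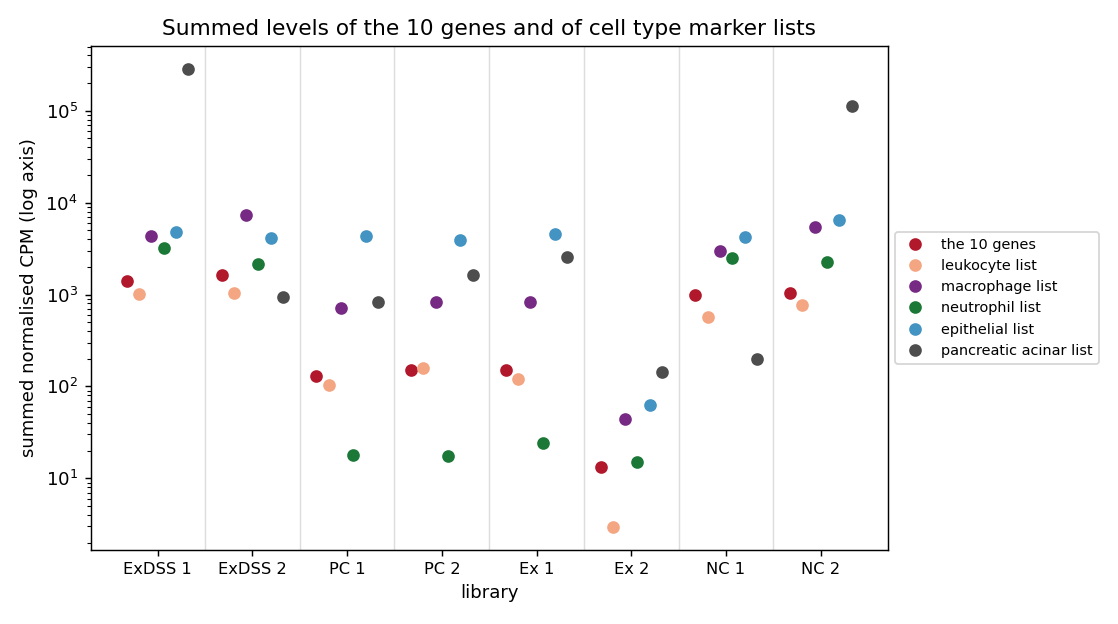
Summed normalised CPM (log axis) of the 10 genes and of 5 marker lists in each library. The 10 genes, leukocyte, macrophage and neutrophil lists are high in ExDSS and NC and low in PC and Ex, the sum of the epithelial list lies between 3969 and 6518 CPM in 7 libraries, and the acinar list is high in ExDSS 1 and NC 2.

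Per count of the leukocyte list, the 10 genes together had 1.39 and 1.56 counts in ExDSS, 1.26 and 0.946 in PC, 1.26 in Ex 1, and 1.72 and 1.37 in NC. Taken singly over these 7 libraries, the genes differed in how far this ratio levelled them. Cd68 lay between 68.9 and 89.2 per 1000 leukocyte counts, a span of 1.30-fold, where its CPM spanned 11.5-fold. Fcgr3 spanned 2.69-fold and 17.3-fold in CPM. Fcgr1 still spanned 11.1-fold per leukocyte count (91.9-fold in CPM), and Fcgr4 13.1-fold (82.5-fold in CPM). Fcgr1 had 122 and 92.9 per 1000 leukocyte counts in ExDSS, 29.4 and 23.1 in PC, 11.0 in Ex 1, and 55.8 and 107 in NC, so ExDSS and NC stayed above PC and Ex. Csf1r ran the other way, with 77.9 and 94.3 in ExDSS, 322 and 241 in PC, 351 in Ex 1, and 84.2 and 129 in NC. Per leukocyte count it was lower in every ExDSS and NC library than in PC and Ex 1, although its CPM was higher there. These ratios are a description, with no test.

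The signalling genes downstream were read from lists that go with the 10 genes. Of 15 tested genes of activating ITAM signalling, 9 were positive in ExDSS against PC, with a median log2 fold change of 1.44 beside -0.51 over all genes, and 12 were negative in PC against NC, with a median of -1.05 beside 0.10. EdgeR called 0 of them in either comparison, and at an unadjusted p under 0.05, 2 were higher (2.84% of all genes) and 1 lower in ExDSS against PC and 0 lower in PC against NC (1.81% of all genes). Rac2, a small GTPase of blood cells that serves the oxidase, read 116 and 92.9 CPM in ExDSS, 8.88 and 9.98 in PC, 4.50 and 0 in Ex, and 56.1 and 57.1 in NC. Fgr, a Src-family kinase of myeloid cells, read 16.5 and 6.71 in ExDSS, 1.60 and 1.57 in PC, 1.84 and 0 in Ex, and 17.7 and 12.3 in NC. Both were high in the libraries in which the 10 genes were high. Syk, the kinase that docks on the paired tyrosines, did not: it read 1.37 and 61.0 in ExDSS, 14.0 and 8.95 in PC, 7.77 and 1.49 in Ex, and 24.4 and 23.2 in NC, so its ExDSS libraries lay on either side of PC. Lyn, next to Rac2 by mean level on this list, did not either. It read 4.12 and 36.3 in ExDSS, 23.7 and 22.3 in PC, 22.3 and 2.98 in Ex, and 41.6 and 21.0 in NC.

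Of 16 tested genes of ITIM and inhibitory signalling, 12 were positive in ExDSS against PC (median 1.34, beside -0.51 over all genes) and 14 in the interaction (median 3.24, beside -0.58), where edgeR called 2, and 0.288% of all genes. They were Lilrb4a, an inhibitory leukocyte immunoglobulin-like receptor, at 10.50 (SE 2.17, edgeR adjusted p = 0.0396), and Cd300lf at 13.33 (SE 2.56, edgeR adjusted p = 0.0246). Cd300lf, an inhibitory receptor of myeloid cells, is named after its values were seen. Lilrb4a read 140 and 187 CPM in ExDSS, 3.13 and 3.38 in PC, 4.19 and 0 in Ex, and 74.4 and 77.8 in NC. Inpp5d, the phosphatase SHIP-1 that Fcgr2b recruits, read 0.137 and 0 in ExDSS, 1.38 and 2.43 in PC, 1.53 and 1.49 in Ex, and 4.38 and 23.9 in NC. Ptpn6, the phosphatase SHP-1, read 8.10 and 28.9 in ExDSS, 10.9 and 12.6 in PC, 7.57 and 0 in Ex, and 25.3 and 3.44 in NC. Neither phosphatase gene followed Lilrb4a, and Inpp5d was near its depth limit in ExDSS. Ptpn11 and Csk, next to Lilrb4a by mean level on this list, did not follow it either. Ptpn11 read 26.8 and 46.2 in ExDSS, 37.9 and 42.3 in PC, 35.5 and 227 in Ex, and 43.2 and 7.82 in NC. Csk read 89.4 and 19.3 in ExDSS, 21.6 and 26.2 in PC, 24.7 and 44.7 in Ex, and 29.8 and 92.6 in NC.

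A further list was drawn up for receptors that pair with Tyrobp or Fcer1g. It also holds genes that are not such receptors, among them Clec7a, Nckap1l and Hcst. Of its 19 tested genes, 17 were positive in ExDSS against PC, with a median of 3.30, and 15 were negative in PC against NC, with a median of -2.55. EdgeR called 0 in both. Without adjustment, at a p under 0.05, 3 were higher (2.84% of all genes) and 1 lower in ExDSS against PC, and 4 were lower in PC against NC (1.81% of all genes). Clec7a, the beta-glucan receptor dectin-1, read 145 and 85.8 in ExDSS, 8.37 and 4.79 in PC, 7.67 and 0 in Ex, and 87.8 and 49.7 in NC. Clec4n, which encodes dectin-2, read 73.9 and 118 in ExDSS, 15.4 and 18.0 in PC, 14.3 and 0 in Ex, and 84.5 and 69.3 in NC. Clec5a, a DAP12-coupled lectin, read 17.0 and 52.0 in ExDSS, 1.82 and 3.85 in PC, 1.94 and 0 in Ex, and 30.7 and 32.0 in NC. These 3 lectins kept the high and low sets of libraries apart. Clec4e, which encodes the lectin mincle and is named after its values were seen, did not: it read 0.137 and 0.0839 in ExDSS, 0 in every PC and Ex library, and 28.9 and 11.2 in NC. Trem2, a DAP12-coupled lipid receptor of macrophages, did not, reading 0 and 29.2 in ExDSS, 2.26 and 3.61 in PC, 2.15 and 0 in Ex, and 11.3 and 23.1 in NC. Trem1, the DAP12-coupled amplifier of neutrophils and monocytes, was near its depth limit in most libraries, at 0.687 and 4.19 in ExDSS, 0.146 and 0 in PC, 0 and 1.49 in Ex, and 14.0 and 0 in NC. Hcst, which encodes the related adaptor DAP10, read 24.3 and 13.4 in ExDSS, 3.28 and 7.23 in PC, 7.26 and 0 in Ex, and at most 5.64 in NC. Unlike the 10 genes, Hcst had its NC libraries within or below the range of PC.

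The partners of the integrin and growth factor receptors were read in the same libraries. Itgb2 encodes CD18, the beta chain that both CD11b and CD11c need to reach the surface. It read 0 and 6.88 CPM in ExDSS, 3.49 and 3.46 in PC, 2.76 and 1.49 in Ex, and 21.7 and 0.859 in NC. In ExDSS 1 there was thus no Itgb2 count beside 542 of Itgam and 649 of Itgax, and 3 counts in that library are 0.412 CPM. That library had a count for only 9825 genes, and the part of this in its 0 values was not tested. The fitted log2 change of Itgb2 in ExDSS against PC was -0.0090, with an SE of 2.28. Csf1, a ligand of the Csf1r product, read 0 and 5.70 in ExDSS, 9.54 and 9.27 in PC, 11.5 and 59.6 in Ex, and 14.4 and 2.10 in NC. Il34, the other ligand, read 0 and 23.5 in ExDSS, 5.75 and 8.56 in PC, 11.9 and 0 in Ex, and 3.52 and 0 in NC. Neither ligand separated ExDSS and NC from PC and Ex. Adgre1, the F4/80 marker gene of mouse macrophages, did so. It read 57.7 and 106 in ExDSS, 6.92 and 8.25 in PC, 10.6 and 0 in Ex, and 48.1 and 24.1 in NC. Not all genes of the macrophage list did. Cd14 read 14.4 and 10.7 in ExDSS, 23.9 and 30.1 in PC, 21.5 and 0 in Ex, and 108 and 3.05 in NC. Cx3cr1, at 4.53 and 50.7 in ExDSS and 26.7 and 33.1 in PC, did not either. In ExDSS against PC, 13 of the 16 tested genes of that list were positive and 3 negative.

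The list of beta-2 integrin partners and ligands had 7 of 11 tested genes positive in ExDSS against PC (median 1.07) and 9 negative in PC against NC (median -0.93), with 0 edgeR calls in both. Cytip, a leukocyte adaptor that regulates adhesion, read 112 and 124 CPM in ExDSS, 9.68 and 13.7 in PC, 12.7 and 0 in Ex, and 49.5 and 69.8 in NC. Tln1, above Cytip by mean level on this list, also kept the high and low sets apart, and Fermt3, next below Cytip, did not. Fermt3 read 1.51 and 5.62 in ExDSS, 13.2 and 15.9 in PC, 9.82 and 0 in Ex, and 28.7 and 5.73 in NC. The list of colony-stimulating factor receptors and ligands had 6 of 8 positive in ExDSS against PC (median 1.90) and 6 negative in PC against NC (median -2.82), again with 0 edgeR calls. Csf2rb, the signalling chain of the GM-CSF receptor, read 27.9 and 25.9 in ExDSS, 2.69 and 5.42 in PC, 4.09 and 0 in Ex, and 42.7 and 16.3 in NC. Csf3r, the receptor of G-CSF and a neutrophil gene, was by contrast at 0 in both ExDSS libraries and at 2.59 and 4.20 in NC, although the neutrophil list was high in both groups. Of 18 lysosome and phagosome genes, 14 were positive in ExDSS against PC (median 1.25) and 16 negative in PC against NC (median -1.27), with 0 edgeR calls. Ctsb, a lysosomal protease gene, read 597 and 791 in ExDSS, 132 and 124 in PC, 129 and 5.96 in Ex, and 429 and 584 in NC. In ExDSS against PC, 1 gene of the integrin list (with 1 lower), 1 of the colony-stimulating factor list and 2 of the lysosome list were higher at an unadjusted p under 0.05 (2.84% of all genes), and 0, 2 and 2 of these lists were lower in PC against NC (1.81% of all genes). Lamp1, which encodes a lysosomal membrane protein of most cell types, lay between 251 and 555 in all 8 libraries, Ex 2 included. Ctss, the gene of highest mean level on the lysosome list, had groups that overlapped. It read 317 and 972 in ExDSS, 325 and 509 in PC, 754 and 0 in Ex, and 721 and 516 in NC.

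**Figure D5:**
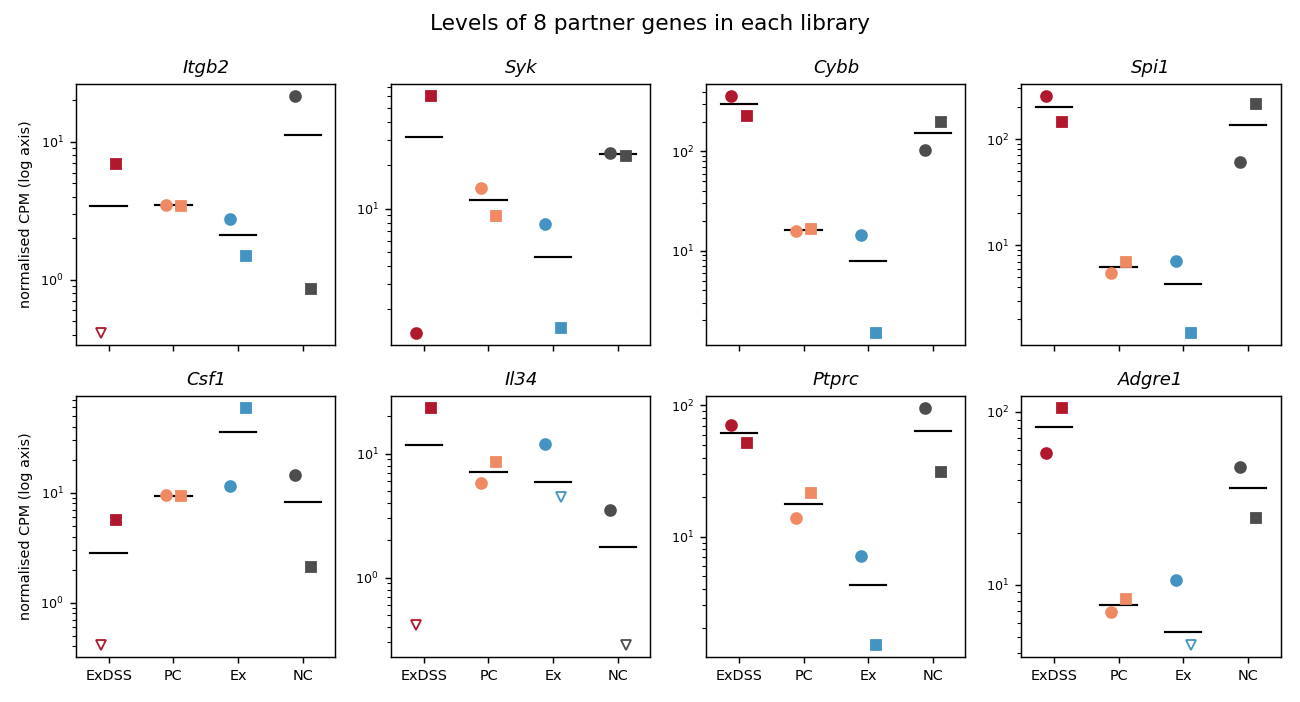
Normalised CPM (log axis, a separate scale for each gene) of 8 partner genes in the 4 groups, with marks as in the plot of the 10 genes. Cybb, Spi1, Ptprc and Adgre1 are high in ExDSS and NC, while Itgb2, Syk, Csf1 and Il34 have libraries of ExDSS or NC at or below PC.

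Of the antibody-binding receptors outside the myeloid set, Fcgrt and Pigr had the highest levels. Fcgrt, which encodes the neonatal Fc receptor that recycles IgG, read 34.3 and 10.5 in ExDSS, 28.8 and 34.6 in PC, 49.6 and 0 in Ex, and 26.4 and 40.7 in NC. Pigr, the epithelial carrier of IgA and IgM, read 1568 and 1171 in ExDSS, 881 and 745 in PC, 588 and 10.4 in Ex, and 955 and 2847 in NC. Fcgrt did not split the libraries as the 10 genes did, while both ExDSS and both NC libraries lay above PC and Ex for Pigr. Of the 7 tested genes of this list, 3 were positive in ExDSS against PC, with a median of -0.50 beside -0.51 over all genes. The genes for antibody constant regions were not analysed here.

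The transcription factor gene Spi1, which encodes PU.1, the ETS factor of the myeloid lineage, read 257 and 145 CPM in ExDSS, 5.46 and 6.91 in PC, 7.05 and 1.49 in Ex, and 60.1 and 214 in NC. It was high in the same libraries as the 10 genes, and its interaction was 9.87 (SE 2.09, edgeR adjusted p = 0.0433). Of the 10 genes of the list it heads, it was the 1 called in the interaction, where 0.288% of all genes were, and 0 were called in the other 4 comparisons. Irf8 and Cebpb, next to Spi1 by mean level, did not split the libraries as it did. Irf8 read 119 and 20.5 in ExDSS, 71.4 and 67.9 in PC, 45.4 and 2.98 in Ex, and 56.8 and 31.1 in NC. Cebpb read 30.3 and 23.2 in ExDSS, 6.19 and 7.07 in PC, 5.93 and 99.9 in Ex, and 44.7 and 24.7 in NC. Cybb, the oxidase subunit gene, read 366 and 229 in ExDSS, 15.7 and 16.7 in PC, 14.3 and 1.49 in Ex, and 104 and 199 in NC.

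Since PU.1 binds a GGAA core and Spi1 was high in the same libraries, the promoter windows of the 10 genes were searched for AGGAAGT and GAGGAA on both strands. The letters of the motifs overlap, so 1 stretch can match both. RefSeq windows (GRCm38.p6, 250 bases before to 50 after the start) were at hand for 8 of the 10 genes. AGGAAGT was found in 2 of the 8, Fcgr1 and Fcgr4, and in at least 1 window of 10.7% of 27025 genes. GAGGAA was found in 5 of the 8, Fcgr1, Fcgr3, Fcgr4, Itgam and Cd68, and in 31.3% of the 27025 genes. Besides the 2 genes that hold both, Itgam is shown for its GAGGAA matches, 3 in its window and 2 in the bases shown. Fcgr2b, whose levels differed from theirs, is shown for comparison. The stretches are the 100 bases before the start of each gene. They cover chr3:96293970-96294069 (minus strand), chr1:171018826-171018925 (plus strand), chr7:128062540-128062639 (plus strand) and chr1:170976072-170976171 (minus strand), each written 5′ to 3′ on the gene's strand with matches in capitals.
Fcgr1: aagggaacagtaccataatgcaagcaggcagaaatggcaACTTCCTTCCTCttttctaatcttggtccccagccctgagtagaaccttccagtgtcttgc
Fcgr4: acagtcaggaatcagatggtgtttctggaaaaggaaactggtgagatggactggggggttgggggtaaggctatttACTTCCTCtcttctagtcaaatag
Itgam: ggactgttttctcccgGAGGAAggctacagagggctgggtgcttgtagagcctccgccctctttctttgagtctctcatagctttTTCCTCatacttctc
Fcgr2b: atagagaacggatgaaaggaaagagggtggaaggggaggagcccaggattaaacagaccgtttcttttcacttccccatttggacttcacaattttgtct
The capitals begin 61 bases before the start in Fcgr1 and 24 in Fcgr4. Fcgr2b has no match in its window, although the letters GGAA occur in it. Fcer1g and Itgax, which were high and low with the other genes, have no match in their windows either. A match is a description of the letters and not a site of binding.

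Over all 14567 genes, those with a mean of at least 5 CPM whose centred log2 profile lay closest to the mean profile of the 10 were Igf1, Zbp1, Napsa, Wfdc17, a line whose name was turned into a date, and Ifitm1. Their root mean square differences ran between 0.229 and 0.383 log2 units over 8 libraries. Igf1, a growth factor gene, read 382 and 380 CPM in ExDSS, 37.1 and 38.9 in PC, 54.0 and 2.98 in Ex, and 235 and 265 in NC. Among the 10 themselves, Fcgr3 lay closest to their mean, at 0.295, and Fcgr2b farthest, at 1.29. No line of the table overlapped any of the 10. Of the 56 tested genes within 100000 bases of them, 34 were positive and 22 negative in PC against NC, with a median of 0.25, and 23 were positive and 33 negative in ExDSS against PC, with a median of -0.82.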

How the data were processed

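Intestinal RNA was measured in 8 libraries, 2 in each of 4 groups, prepared with the QuantSeq 3′ mRNA kit, per the labels' protocols. The submitters' processing notes name Bowtie2, bedtools, edgeR and the build mm9, without versions. The authors deposited unnormalised counts of reads, 1 line a gene. Coordinates in that table overlapped the GRCm38 gene of the same name for 99.69% of 22139 matched lines, so they are given as GRCm38. No source states whether strand was used in counting.

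Counts were tested with edgeR 4.0.16 in R 4.3.3: filterByExpr, TMM factors, and a robust quasi-likelihood fit with 1 coefficient per group over 8 libraries (4 residual degrees of freedom), with Benjamini-Hochberg adjustment over all 14567 genes and calls below an adjusted p of 0.05. To obtain normalised CPM (counts per 1000000), each count was divided by the library's total times its TMM factor. Each SE was derived from the fold change and its F statistic. Total counts ranged between 1163147 and 12308537. DESeq2 1.42.0, limma-voom (limma 3.58.1) and other settings were alternatives. On counts simulated with a dispersion of 0.1, below the 1.17 estimated here, the scripts recovered 192 of 197 genes changed by 4 log2 units, with 3 false calls, for PC against NC over 14136 genes. Named partners were the 20 genes known to work with the 10, some of the top 3 genes by mean CPM of the lists, and the 6 nearest profiles at a mean of at least 5 CPM. Of the partners, 1 is not reported here. The 10 genes and all lists were chosen with earlier results of these data known.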

Additional observations from a re-analysis of the deposited data

Results flagged for a closer look

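In the reported fit, and with the groups as labelled, the change of Fcgr4 with DSS differed with exosome treatment. Its fitted log2 change with DSS was 6.10 after exosomes (ExDSS against Ex) and -4.45 after saline (PC against NC), and the interaction term itself was 10.55 (SE 2.21, edgeR adjusted p = 0.0404 over 14567 genes). The libraries read 181 and 84.4 normalised CPM in ExDSS, 4.73 and 2.20 in PC, 2.97 and 0 in Ex, and 81.1 and 71.4 in NC, so both ExDSS libraries were above both Ex libraries and both PC libraries below both NC libraries. The call was lost with library totals alone and when any 1 of 7 libraries was left out. The alarmin genes S100a8 and S100a9 were high and low in the same libraries, against the PC and NC labels on which the value of -4.45 rests. Their part in this result was not tested.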

How the results depend on the processing

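Of 850 recomputed values for the 10 genes, 725 kept both direction and side of the threshold, 114 newly passed, 9 no longer passed and 2 reversed: without NC replicate 1, Fcgr2b was 0.32 in PC against NC and 0.22 in Ex against NC. Over the libraries left out in turn it ran between -3.18 and 0.32 in PC against NC and between -10.89 and 0.22 in Ex against NC. The cause was not tested. Calls in the interaction, 42 genes and 1 of the 10 in the reported fit, became 67 genes with RLE factors, 6 genes and 0 of the 10 with totals alone, and 2 of the 10 without Rn45s and acinar genes. Comparisons are given next in the order PC against NC, ExDSS against PC, Ex against NC, ExDSS against Ex and interaction. With no filter on low counts 45, 132, 55, 223 and 350 genes were called, and 1 of the 10 in ExDSS against Ex and 5 in the interaction. DESeq2 called 86, 1526, 337, 2046 and 1672 genes and 1, 6, 4, 7 and 8 of the 10. Limma-voom called 2, 1160, 0, 505 and 327 genes, and 3 of the 10 in ExDSS against PC, 4 in ExDSS against Ex and 5 in the interaction. With a replicate block, edgeR called 41 genes in ExDSS against PC, 28 in ExDSS against Ex and 161 in the interaction, with 3 of the 10 there. The numbers are only in the titles, and the pairing check gave correlations between -0.149 and 0.0506, so they were not taken to pair libraries.

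Leaving out 1 library gave 0 to 4, 0 to 6, 0 to 1596, 0 to 1883 and 0 to 1663 genes, and 0 to 7 of the 10 in Ex against NC, 0 to 8 in ExDSS against Ex and 0 to 9 in the interaction. The upper ends of the last 3 comparisons came without Ex 1, which leaves the shallow Ex 2 alone, assumed to vary like the other groups. Of 2 settings added after the data were seen, leaving out NC 2 and ExDSS 1 gave 0 genes and 0 of the 10 in the interaction. Leaving out Ex 2 as well gave 3910, 10719, 3603, 9839 and 9646 genes and 9, 10, 9, 10 and 10 of the 10, with a spread estimated from the PC libraries alone. Other scaling moved the median over all genes tested, in ExDSS against PC to a log2 value of -0.36 with RLE factors and -0.91 with totals alone, beside -0.51. Pooled over its libraries, the activating to inhibitory count ratio was 45.7 without ExDSS 2, beside 24.0, and 84.1 without NC 1, beside 12.2. In Ex 2, changes under 3 counts were not detectable at its depth.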

Other observations

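Within groups, the 10 genes differed by a median of 1.52-fold between the ExDSS libraries, 1.15-fold between the PC libraries and 1.85-fold between the NC libraries. In Ex no such median over the 10 is given, since 4 of them had no count in Ex 2. Itgax and Fcgr2b were the genes with the widest spread in ExDSS and NC, at 4.60-fold and 11.4-fold. ExDSS 1, with 649 Itgax counts and a count for only 9825 genes, held no count of Itgb2, Csf1, Il34 or Trem2.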
